A study of Mus musculus with 12 samples.

Results

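The Ms4a family codes for small membrane proteins that cross the membrane several times and sit in the surface or in endosomes of immune cells, where they associate with receptors and tune their signalling. The 7 members described here are Ms4a4a, Ms4a4b, Ms4a4c, Ms4a6b, Ms4a6c, Ms4a6d and Ms4a7, which were taken by name from a table of 56735 gene rows. They were measured by bulk RNA-seq in subdural CNS-associated macrophages (sdCAMs), the CD206+ macrophages of the leptomeninges and of the spaces around brain vessels. Brains were used without the choroid plexuses. All mice were adult and Mrc1CreERT2/CreERT2:R26tdT/tdT, that is, a tamoxifen-inducible Cre was expressed from Mrc1, the gene of CD206, and switched on a tdTomato (tdT) reporter, and all received tamoxifen. The mice were then given vehicle or BLZ945, an inhibitor of the CSF-1 receptor, at 200 mg/kg for 7 days, and cells were taken 8 weeks later. There were 4 libraries in each of 3 groups, namely tdT+ cells of vehicle mice, tdT+ cells of BLZ945 mice and tdT- cells of BLZ945 mice. The mouse labels are F1, F2, M1 and M2, and the tdT+ and tdT- libraries of BLZ945 mice with a shared label came from the same animal. The vehicle mice were other animals with labels of the same form. The reporter marks cells that expressed Mrc1 at the time of tamoxifen, and tdT- cells are CD206+ cells without this mark, whatever their origin. A tdT- library of vehicle mice was not analysed here, so that absence of the label and treatment cannot be told apart where tdT- cells are set against vehicle cells.

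Members of the family differ in the cells that use them. Ms4a7 and Ms4a4a are genes of tissue macrophages, and Ms4a7 is widely used to tell CNS-associated macrophages from microglia. Ms4a4a protein gathers with the fungal receptor Dectin-1 (Clec7a) at the macrophage surface. Ms4a6b, Ms4a6c and Ms4a6d are expressed in myeloid cells, Ms4a6d protein was found with the complement receptor Vsig4, Ms4a4c is known from monocytes as an interferon-responsive gene, and Ms4a4b is best known from T cells. The related Ms4a1 codes for the B cell protein CD20, Ms4a2 for a chain of the high-affinity IgE receptor of mast cells and basophils, and Ms4a3 marks granulocyte and monocyte progenitors.

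The libraries held between 19969308 and 23395058 counts, at which 3 counts correspond to between 1.28e-05% and 1.5e-05% of a library. The tdTomato row had 0 counts in all 12 libraries and could not serve to check the sort. Xist was counted in 6 of 6 libraries labelled F and in 0 of 6 labelled M, and the Y-linked Ddx3y only in the 6 labelled M, but the vehicle library F2 held 112 counts of the Y-linked Kdm5d. The tdT- library F2 stood apart, with a summed level of 5 neutrophil markers of 422702 normalised counts against at most 69.4 in any other library, and of 5 monocyte markers of 51211 against at most 6650. The fold changes in tdT- cells that passed a test, and most levels, are therefore also given without it. The 7 markers of CNS-associated macrophages were detected in all groups, with sums between 281030 and 328291 in vehicle tdT+, between 321604 and 370551 in BLZ945 tdT+ and between 179284 and 223724 in tdT- libraries. The 5 microglia markers were also detected in every group, with sums between 44599 and 71225, between 73903 and 98744 and between 190748 and 405050, and all 5 were higher in tdT- cells than in either tdT+ group (DESeq2, adjusted p of at most 0.05).

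All 21 Ms4a rows of the table lie on mouse chromosome 19 within 679 kb (GRCm39, coordinates of the deposited table), and the 7 members take 284 kb of it. In the order of the chromosome they are Ms4a7 (chr19:11298403-11313510, - strand), Ms4a4a (chr19:11352887-11370154, +), Ms4a4c (chr19:11382134-11404610, +), Ms4a4b (chr19:11420917-11444419, +), Ms4a6c (chr19:11446730-11459556, +), Ms4a6b (chr19:11493876-11508620, +) and Ms4a6d (chr19:11563968-11582213, - strand). Counts are of reads over the merged exons of each gene, which sum to between 836 bases for Ms4a4a and 8780 for Ms4a4b. Only Ms4a4d stands between members, on the + strand between Ms4a6b and Ms4a6d, and it had 33 counts in all 12 libraries together.

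**Figure D1:**
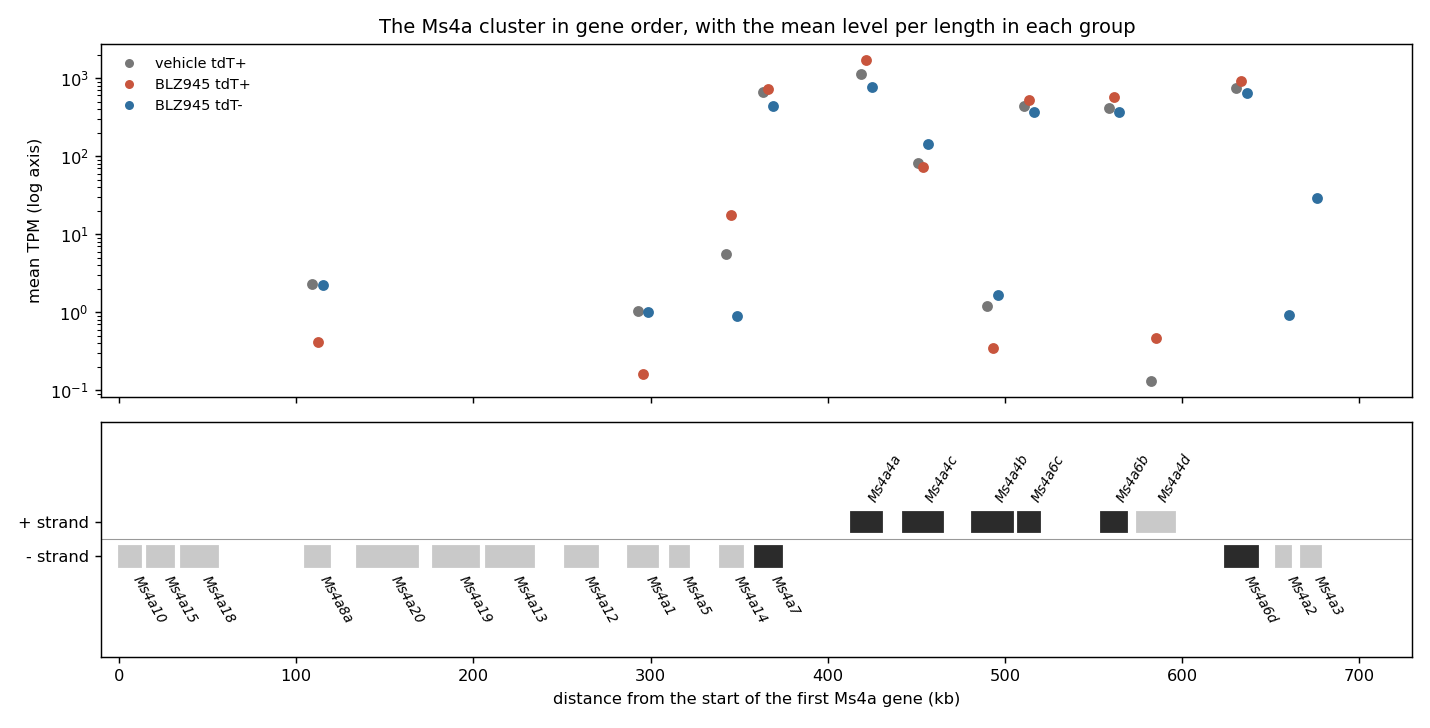
The Ms4a cluster in gene order. The lower panel shows each gene as a bar by distance in kb from the start of the first Ms4a gene, on its strand, with the 7 members in black and the other 14 rows in grey. The upper panel shows the mean level per length (TPM, log axis, n = 4) at each gene's middle for vehicle tdT+ (grey), BLZ945 tdT+ (red) and BLZ945 tdT- cells (blue), with means under 0.1 TPM not drawn. Of the members, 6 have means above 70 TPM in every group and Ms4a4b lies at or below 1.69 TPM.

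Some members are near copies of each other, which bears on how their reads could be assigned, because reads that map to several places were not counted. The coding sequences of Ms4a4b and Ms4a4c were 91.8% identical and shared a run of 127 bases. Those of Ms4a6b and Ms4a6c were 85.3% identical with a shared run of 55 bases, Ms4a6b and Ms4a6d 81.3% with a run of 81 bases, and Ms4a6c and Ms4a6d 79.1%. Ms4a7 and Ms4a4a were at most 68.3% identical to any other member and had no run longer than 16 bases in common with one. The longest shared runs of the closest 2 pairs are shown in capitals within their 15 flanking bases on either side, 5′ to 3′, from the transcripts of GENCODE M21, with positions counted from the first base of the start codon.
Ms4a4b, capitals at coding bases 321 to 447: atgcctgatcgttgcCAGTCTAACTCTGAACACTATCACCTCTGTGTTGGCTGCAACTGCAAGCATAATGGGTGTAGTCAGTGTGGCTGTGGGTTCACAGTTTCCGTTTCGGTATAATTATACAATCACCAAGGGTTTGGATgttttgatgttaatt
Ms4a4c, capitals at coding bases 321 to 447: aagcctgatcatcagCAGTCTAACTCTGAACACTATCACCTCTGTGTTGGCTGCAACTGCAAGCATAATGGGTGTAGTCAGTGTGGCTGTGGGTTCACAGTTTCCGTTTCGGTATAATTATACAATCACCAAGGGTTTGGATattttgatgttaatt
Ms4a6b, capitals at coding bases 389 to 443: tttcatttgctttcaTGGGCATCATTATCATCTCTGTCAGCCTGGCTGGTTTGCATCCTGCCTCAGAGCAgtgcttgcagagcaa
Ms4a6c, capitals at coding bases 389 to 443: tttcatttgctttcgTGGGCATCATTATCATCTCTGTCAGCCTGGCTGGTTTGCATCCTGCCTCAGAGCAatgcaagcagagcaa
In the longest-coding GENCODE M21 transcript of each gene, 65.9% of the bases of Ms4a6c lay in exact matches of at least 50 bases to a transcript of another gene, 20.8% of Ms4a4c, 18.6% of Ms4a6b, 9.73% of Ms4a6d and 9.31% of Ms4a4b, against 0 for Ms4a7 and Ms4a4a. These matches were sought on both strands, and for Ms4a6c they include the antisense gene BE692007 and genes outside the family. Its 65.9% is therefore not all sequence of near copies. By position, Ms4a6c shares 1088 exon bases with BE692007, which is not separate from that share. Ms4a4c shares 28 with Gm5692 and Ms4a6b 19 with Gm19261, and counting was without strand. The counts of Ms4a6c are therefore the least certain of the 7, and those of Ms4a7 and Ms4a4a the least affected by either kind of sharing.

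Promoters are shown beside this because the Ms4a6 genes had closely similar profiles over the libraries, described further on, while Ms4a4b and Ms4a4c did not. Ms4a4b was counted only sparsely, and a link between promoters and profiles was not tested. RefSeq promoters (GRCm38.p6) matched 6 of 7 members with 7 windows, and Ms4a6d was not matched. The windows of Ms4a6b and Ms4a6c were 85.1% identical over their aligned part with a run of 48 bases in common, and those of Ms4a4b and Ms4a4c 78.4% with a run of 20 bases. The other pairs of windows were between 48.7% and 61.7% identical, with no run over 9 bases. The 250 bases before the start site are shown with these runs in capitals, and for the second window of Ms4a7 the capitals mark a match to the AP-1 motif.
Ms4a6b promoter, chr19:11518309-11518558, + strand: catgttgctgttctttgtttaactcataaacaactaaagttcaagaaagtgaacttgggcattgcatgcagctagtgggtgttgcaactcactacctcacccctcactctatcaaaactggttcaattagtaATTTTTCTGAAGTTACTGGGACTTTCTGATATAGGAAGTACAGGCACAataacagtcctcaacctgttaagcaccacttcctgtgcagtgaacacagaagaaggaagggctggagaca
Ms4a6c promoter, chr19:11469118-11469367, + strand: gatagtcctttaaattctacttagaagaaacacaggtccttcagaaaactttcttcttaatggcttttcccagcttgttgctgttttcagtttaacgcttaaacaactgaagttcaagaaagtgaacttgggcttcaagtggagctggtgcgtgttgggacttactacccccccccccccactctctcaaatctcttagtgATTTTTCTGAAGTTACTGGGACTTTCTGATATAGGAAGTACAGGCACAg
Ms4a4b promoter, chr19:11443308-11443557, + strand: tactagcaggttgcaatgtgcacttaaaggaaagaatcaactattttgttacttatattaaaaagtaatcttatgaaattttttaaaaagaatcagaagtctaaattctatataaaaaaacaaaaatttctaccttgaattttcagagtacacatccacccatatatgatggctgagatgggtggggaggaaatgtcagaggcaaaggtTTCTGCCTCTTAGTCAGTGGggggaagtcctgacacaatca
Ms4a4c promoter, chr19:11407411-11407660, + strand: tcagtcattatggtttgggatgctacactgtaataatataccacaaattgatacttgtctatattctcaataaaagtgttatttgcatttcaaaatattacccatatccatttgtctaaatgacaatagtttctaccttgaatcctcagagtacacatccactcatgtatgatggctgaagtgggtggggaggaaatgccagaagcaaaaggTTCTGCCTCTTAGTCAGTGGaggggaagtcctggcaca
Ms4a7 promoter, chr19:11334696-11334945, - strand: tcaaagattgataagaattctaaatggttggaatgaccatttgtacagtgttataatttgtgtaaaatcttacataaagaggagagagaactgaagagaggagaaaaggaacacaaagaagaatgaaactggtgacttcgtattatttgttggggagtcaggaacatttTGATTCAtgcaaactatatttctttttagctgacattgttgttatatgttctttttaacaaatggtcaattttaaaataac
The same windows, extended to 50 bases past the start site, were searched on both strands for the PU.1 core GAGGAAGT, the interferon regulatory motif (GAAA, any 2 bases, GAAA), the AP-1 motif TGANTCA, the C/EBP motif TTGCNNAA and the E-box CACGTG. These letters occur in 3.2%, 3.44%, 7.81%, 10.8% and 7.15% of all 32851 RefSeq windows. Matches in the 7 windows were the AP-1 motif 81 bases before the second start site of Ms4a7 and the AP-1 motif 23 bases after that of Ms4a4b. The other 4 motifs had no match in these windows.

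Levels of different genes were compared per length, as TPM, which scales counts by exon length and by the sum over all genes of a library. The order below depends on the length used, which here is that of all merged exons of a gene, 4453 bases for Ms4a7 and 836 for Ms4a4a. In vehicle tdT+ cells Ms4a4a had the highest level with 1121 ± 167 TPM (SD, n = 4 here and below), at rank 96 of all genes. It was followed by Ms4a6d with 741 ± 35.7, Ms4a7 with 662 ± 30.5, Ms4a6c with 441 ± 48.2, Ms4a6b with 411 ± 40.1, Ms4a4c with 81.5 ± 29.3 and Ms4a4b with 1.21 ± 1.64 TPM. The ranges of Ms4a6d and Ms4a7 overlapped and so did those of Ms4a6c and Ms4a6b, whereas the other neighbours in this order did not overlap. In BLZ945 tdT+ cells the order began with Ms4a4a at 1706 ± 369 TPM, Ms4a6d at 909 ± 56.5 and Ms4a7 at 724 ± 77.8. Ms4a6b (566 ± 91.0) and Ms4a6c (524 ± 54.3) stood next, where the ranges of Ms4a7 and Ms4a6b and those of Ms4a6b and Ms4a6c overlapped, and Ms4a4c had 72.3 ± 20.8 and Ms4a4b 0.354 ± 0.423 TPM. In tdT- cells the first 5 members lay closer together, since Ms4a4a had 766 ± 168 TPM, Ms4a6d 644 ± 87.7, Ms4a7 436 ± 106, Ms4a6c 372 ± 79.8 and Ms4a6b 368 ± 68.6, and each overlapped with its neighbour. Ms4a4c had 144 ± 18.5 TPM there, below Ms4a6b without overlap, and Ms4a4b 1.69 ± 2.31. Without the tdT- library F2 the levels were 844 ± 73.5 for Ms4a4a, 686 ± 29 for Ms4a6d, 483 ± 56.1 for Ms4a7, 392 for both Ms4a6c and Ms4a6b, 141 ± 21.5 for Ms4a4c and 1.84 ± 2.8 for Ms4a4b (n = 3). The range of Ms4a4a was then 764 to 907 TPM and that of Ms4a6d 663 to 718, without overlap. Ms4a7, at 437 to 546, did not overlap with Ms4a6d either, so these overlaps in tdT- cells rested on F2.

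With the length of the longest-coding GENCODE M21 transcript, which is 1576 bases for Ms4a7 and again 836 for Ms4a4a, Ms4a7 came first in all 3 groups. This setting was chosen after seeing the data. Per kilobase of transcript, vehicle tdT+ cells then had 14221 ± 1022 normalised counts of Ms4a7 and 8499 ± 1053 of Ms4a4a, without overlap. In BLZ945 tdT+ cells the values were 15429 ± 1592 and 12838 ± 2606 and overlapped. In tdT- cells, with F2 included, Ms4a7 had 10219 ± 2494, Ms4a6d 6536 ± 863 and Ms4a4a 6352 ± 1352, and neighbours among these overlapped. Levels by this length are not given without F2, so whether these overlaps too rested on F2 is not shown here. With either length Ms4a4c was sixth and Ms4a4b last, whereas the order of the first 5 members depended on it.

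The members together made up 0.304 ± 0.0121% of all counts in vehicle tdT+ libraries, 0.361 ± 0.0366% in BLZ945 tdT+ libraries and 0.248 ± 0.0363% in tdT- libraries (0.264 ± 0.0186% without F2). The shares of single members in their summed TPM depend on the exon lengths in the same way as the levels. Ms4a4c took 2.37 ± 0.902% of the members' summed TPM in vehicle tdT+, 1.58 ± 0.264% in BLZ945 tdT+ and 5.40 ± 1.31% in tdT- libraries. Ms4a4a took 32.3 ± 3.32%, 37.6 ± 3.70% and 27.8 ± 1.85%, and Ms4a6d 21.5 ± 0.908%, 20.3 ± 1.72% and 23.7 ± 1.27% in the same order. The share of Ms4a7 was 19.2 ± 1.79%, 16.2 ± 2.19% and 15.8 ± 2.12%. Without the tdT- library F2 the shares in tdT- cells were 4.78 ± 0.47% for Ms4a4c, 28.7 ± 0.725% for Ms4a4a, 23.4 ± 1.36% for Ms4a6d and 16.5 ± 2.04% for Ms4a7. Shares sum to a fixed total and were not tested.

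**Figure D2:**
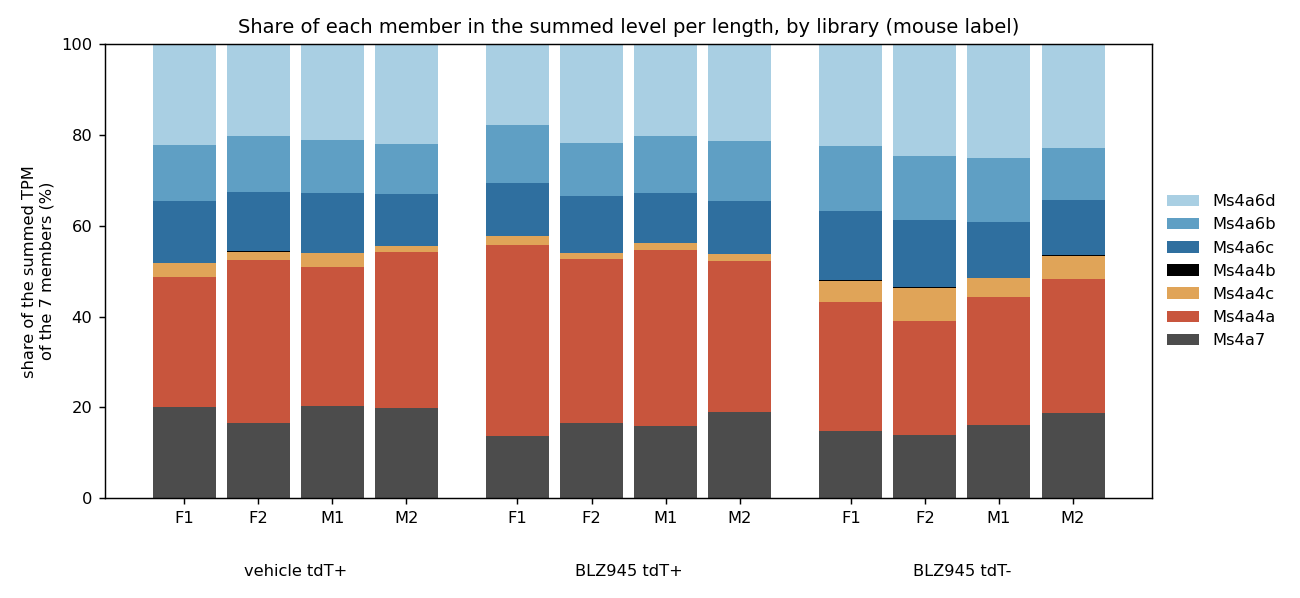
Share of each member in the summed TPM of the 7 members, 1 bar per library under its mouse label, in the 3 groups (y axis in percent). By the merged exon length used here, Ms4a4a has the broadest band in all 12 libraries, the band of Ms4a4c is broader in the 4 tdT- libraries (4.29 to 7.28%) than in the 8 tdT+ libraries (1.32 to 3.19%), and Ms4a4b is barely visible.

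The first comparison asked how the 7 genes differ between tdT- and tdT+ cells that share the same BLZ945-treated brains. Here Ms4a7, Ms4a4a, Ms4a6b and Ms4a6d were lower and Ms4a4c was higher in tdT- cells, so that 5 of 7 members passed an adjusted p of 0.05 in DESeq2. Over all 13724 genes tested 6.38% passed, 3.51% as lower and 2.86% as higher. Under edgeR's quasi-likelihood test 2 members passed, where 2.75% of all genes did, and with the mouse as a replicate block, which pairs the libraries of 1 animal, 6 did, where 7.21% of all genes did. The median log2 fold change of the members was -0.33, beside 0.00 over all genes tested. No member was a differentially expressed gene (DEG), for which the shrunken log2 fold change must also reach 1 or -1, and 2.25% of all genes were DEGs. Normalised counts did not overlap between both groups for 4 members, against 9.35% of all genes. In bulk RNA, fewer cells of a type and less RNA per cell cannot be told apart. The lower level of all 7 CNS-associated macrophage markers and the higher level of all 5 microglia markers in tdT- cells moved with these differences, and their part in them was not tested.

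Ms4a4a had the strongest decrease. Normalised counts of Ms4a4a were 13605 in F1, 8888 in F2, 11232 in M1 and 9204 in M2 of the BLZ945 tdT+ libraries. In the tdT- libraries of the same mice they were 6125, 3682, 5412 and 6022, so that the groups did not overlap and each mouse had less in its tdT- cells. The means were 10732 ± 2179 and 5310 ± 1130, and the shrunken log2 fold change was -0.96 ± 0.18 (SE, DESeq2 adjusted p = 1.33e-06). Within mice the difference lay between -1.27 and -0.61 on the log2 scale, and without the tdT- library F2 the fold change was -0.83. Vehicle tdT+ libraries held 6523, 8274, 6339 and 7285 normalised counts, between both BLZ945 groups without overlapping either.

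Ms4a7 was also lower in tdT- cells. Its normalised counts were 23389 in F1, 21737 in F2, 24449 in M1 and 27686 in M2 of the tdT+ libraries, against 16835, 10805, 16482 and 20300 in the tdT- libraries. The groups did not overlap, the lowest value was that of the tdT- library F2, and the log2 fold change was -0.54 ± 0.15 (DESeq2 adjusted p = 0.00314). Without that library it was -0.43 (DESeq2 adjusted p = 0.00108), and edgeR gave an adjusted p of 0.0573. Vehicle tdT+ libraries held 24241, 20317, 22602 and 22487 normalised counts of Ms4a7, within or near the range of BLZ945 tdT+ cells and just above the highest tdT- library. By TPM, Ms4a7 stood at rank 265 of all genes in tdT- cells.

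Ms4a4c moved the other way. In the tdT+ libraries it had 1319 normalised counts in F1, 678 in F2, 920 in M1 and 891 in M2. The tdT- libraries had 2179, 2226, 1723 and 2230, above every tdT+ library, and 4 of 4 mice had more in tdT- cells, by 0.72 to 1.71 on the log2 scale. The means were 952 ± 267 and 2090 ± 245, with a log2 fold change of 0.98 ± 0.31 (DESeq2 adjusted p = 0.0038), or 0.90 without the tdT- library F2 (DESeq2 adjusted p = 0.0171). Under edgeR the adjusted p was 0.0499, at the border of the threshold. Of the monocyte markers 4 were tested and 2 were higher in tdT- cells, with sums of all 5 between 3076 and 6650 normalised counts in the tdT- libraries other than F2 and between 901 and 1981 in the tdT+ libraries, and their part in the difference of Ms4a4c was not tested. Its near copy Ms4a4b had 26.7, 5.53, 59.5 and 0 normalised counts in the tdT+ and 32.3, 91.3, 0 and 372 in the tdT- libraries. Ms4a4b passed the filter on low counts, but it varied from 0 upwards within both groups and no difference was detectable at this level (DESeq2 adjusted p = 0.599, or 0.615 without the tdT- library F2). The 6 T and NK cell markers summed to 680 normalised counts in the tdT- library F2 and to 54.5 in M2, all of it Nkg7, which was called higher than in BLZ945 tdT+ cells, and to 0 in F1 and M1, so that Cd2, Cd3d, Cd3e, Cd3g and Lck were at 0 in every tdT- library.

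The 3 Ms4a6 genes resembled each other. Ms4a6b had 22085 normalised counts in F1, 15244 in F2, 19509 in M1 and 19649 in M2 of the tdT+ libraries and 16539, 11067, 14548 and 12623 in the tdT- libraries. The groups overlapped, but each of the 4 mice had less in its tdT- cells, by 0.42 to 0.64 on the log2 scale. The log2 fold change was -0.43 ± 0.14 (DESeq2 adjusted p = 0.0129). Ms4a6d had 12039, 11168, 12221 and 12105 in the tdT+ and 10065, 7455, 9943 and 9610 in the tdT- libraries, which did not overlap (log2 fold change -0.33 ± 0.10, DESeq2 adjusted p = 0.013). Ms4a6c had 9274, 7547, 7719 and 7837 in the tdT+ and 8089, 5309, 5797 and 6050 in the tdT- libraries. It too was lower in 4 of 4 mice, but the groups overlapped and it did not pass (log2 fold change -0.31 ± 0.14, DESeq2 adjusted p = 0.13). With the replicate block the adjusted p of Ms4a6c in DESeq2 was 0.0154.

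The calls of Ms4a6b and Ms4a6d were lost without any one of several libraries, while their fold changes moved little. Without the tdT+ library F1, M1 or M2 the log2 fold change of Ms4a6b was -0.35, -0.40 and -0.41 (DESeq2 adjusted p = 0.0883, 0.0519 and 0.0531), and without the tdT- library M2 it was -0.39 (0.056). Without the same tdT+ libraries that of Ms4a6d was -0.32, -0.31 and -0.31 (DESeq2 adjusted p = 0.0527, 0.0613 and 0.0582). Under edgeR they were -0.50 for Ms4a6b (adjusted p = 0.0851) and -0.38 for Ms4a6d (adjusted p = 0.0788). With the replicate block both passed, at -0.47 for Ms4a6b (DESeq2 adjusted p = 3.00e-06) and -0.35 for Ms4a6d (DESeq2 adjusted p = 0.00947). Conversely, without the tdT- library F1 Ms4a6c passed (log2 fold change -0.47, DESeq2 adjusted p = 0.0017). Without the tdT- library F2 Ms4a6b, Ms4a6d and Ms4a6c had log2 fold changes of -0.35, -0.25 and -0.24 (DESeq2 adjusted p = 0.0454, 0.00646 and 0.28). The calls of Ms4a4a and Ms4a4c, in contrast, held in all 16 alternative settings. Among these, unshrunken fold changes keep the adjusted p of the main fit and could not change a call.

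**Figure D3:**
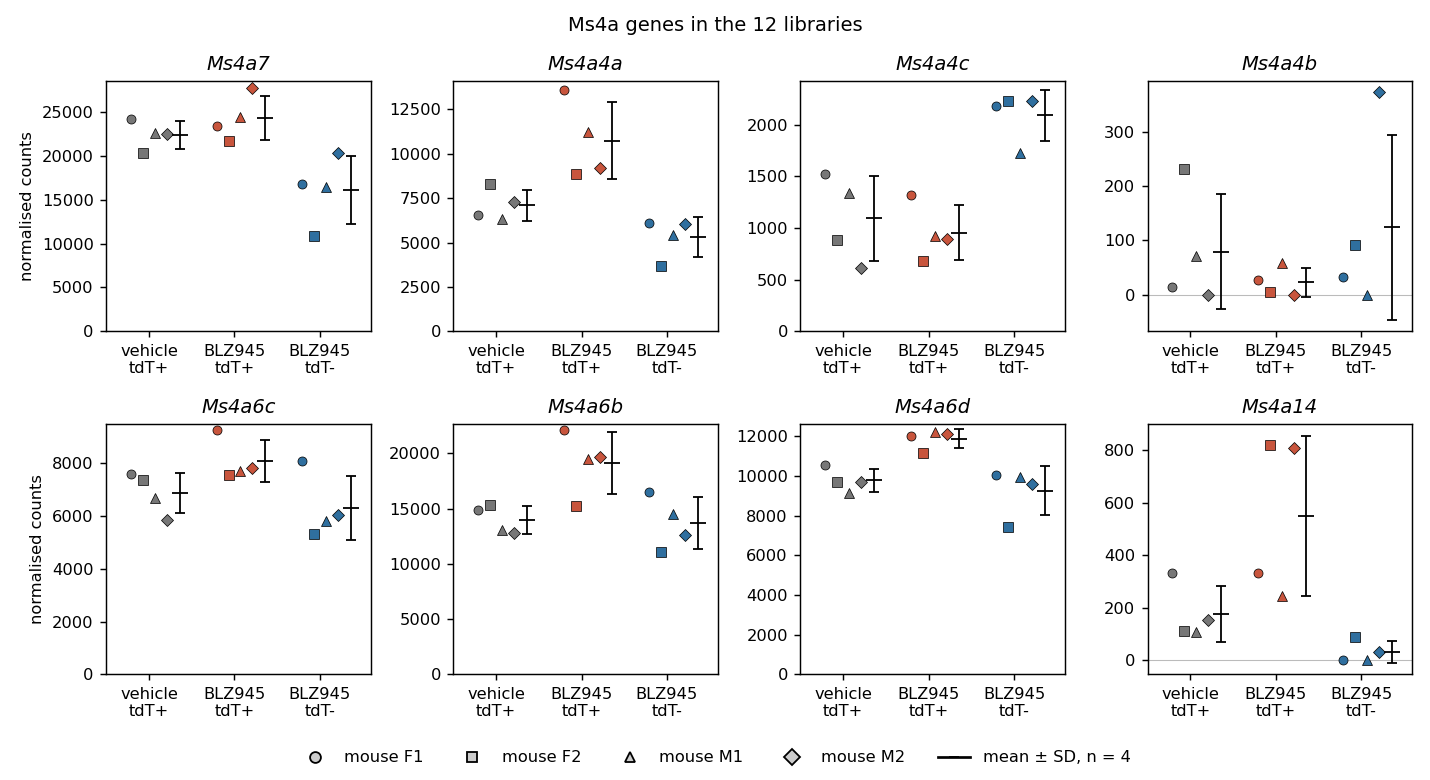
Normalised counts (y axis, linear from 0 or just below it) of the 7 members and of Ms4a14 in the 12 libraries by group, with a symbol for each mouse label and the mean ± SD of 4 libraries as a bar beside the points. Vehicle mice are other animals than BLZ945 mice of the same label. Ms4a7, Ms4a4a and Ms4a6d show tdT- libraries below all BLZ945 tdT+ libraries, Ms4a4c shows them above, and Ms4a4b lies near 0 in most libraries.

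**Figure D4:**
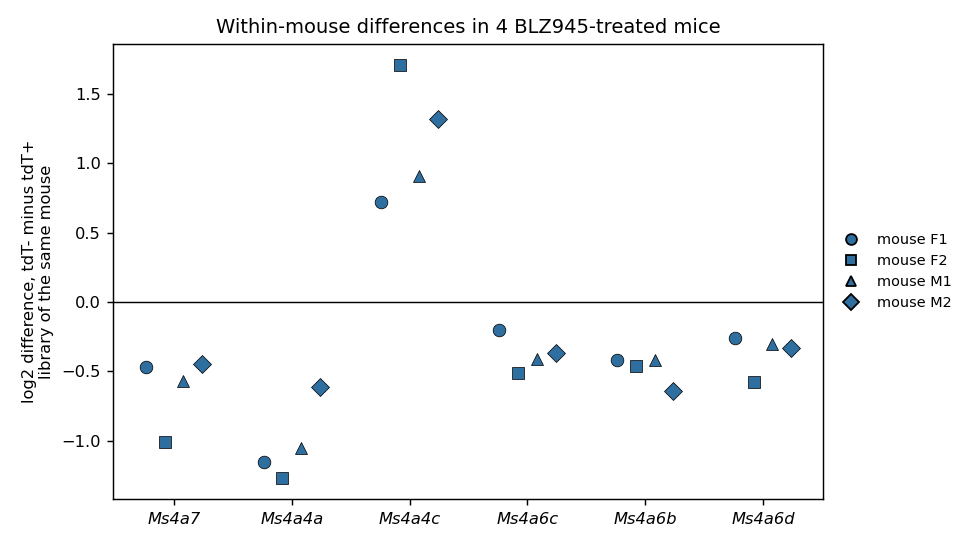
Difference in log2(normalised count + 1) between the tdT- and the tdT+ library of the same BLZ945-treated mouse (y axis), for 6 members, with a symbol for each of 4 mice. Ms4a4b is not drawn because of its libraries at 0. All 4 mice lie above 0 for Ms4a4c and below 0 for the other 5 genes.

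The second comparison set tdT- cells against tdT+ cells of vehicle mice. Ms4a4c was higher and Ms4a7 lower in tdT- cells, so that 2 of 7 members passed, where 6.76% of all genes did, 3.49% as lower and 3.27% as higher. Groups did not overlap for 3 members, against 9.70% of all genes. With the replicate block 2 members passed, against 7.40%, but here the block pairs different animals that share only a label. None was a DEG, beside 2.55% of all genes. The median log2 fold change of the members was -0.07, and that of all genes 0.01. Both contrasts on tdT- cells use the same tdT- libraries and are not independent. All 5 microglia markers were higher and 6 of 7 CNS-associated macrophage markers lower in tdT- than in vehicle cells. Of 4 monocyte markers tested 2 were higher, with sums between 1549 and 3885 normalised counts in vehicle libraries, and the part of these markers in the differences was not tested.

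Ms4a4c had 1522, 887, 1340 and 615 normalised counts in the vehicle libraries F1, F2, M1 and M2, all below the lowest tdT- library at 1723. Its log2 fold change was 0.76 ± 0.31 (DESeq2 adjusted p = 0.0268). The call was lost under edgeR, at 0.91 (adjusted p = 0.107). It was also lost without the tdT- library F1, F2 or M2, at 0.70, 0.68 and 0.69 (DESeq2 adjusted p = 0.071, 0.0687 and 0.0775), and without the vehicle library F2 or M2, at 0.62 and 0.57 (0.108 and 0.0877). For Ms4a7 the log2 fold change was -0.42 ± 0.15 (DESeq2 adjusted p = 0.0307), with groups that did not overlap by a narrow margin of 20300 against 20317 normalised counts. Without the tdT- library F2 it was -0.31 (DESeq2 adjusted p = 0.0306). It was not called by edgeR, at -0.51 (adjusted p = 0.114), or with the libraries of these 2 groups alone, at -0.41 (DESeq2 adjusted p = 0.0687). Without the vehicle library F1, M1 or M2 it was -0.38, -0.41 and -0.41 and not called (DESeq2 adjusted p = 0.122, 0.0869 and 0.0745).

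Ms4a4a was below every vehicle library in all 4 tdT- libraries, with a log2 fold change of -0.35 ± 0.18 that did not pass (DESeq2 adjusted p = 0.172), or -0.24 without the tdT- library F2 (0.336). The vehicle libraries F1, F2, M1 and M2 held 14876, 15313, 13055 and 12789 normalised counts of Ms4a6b, 7583, 7359, 6681 and 5872 of Ms4a6c and 10556, 9718, 9151 and 9683 of Ms4a6d. These ranges overlapped with those of tdT- cells for all 3 genes, and log2 fold changes were -0.03 for Ms4a6b, -0.10 for Ms4a6c and -0.07 for Ms4a6d (DESeq2 adjusted p between 0.827 and 0.978). The values of Ms4a4b in vehicle libraries, 15, 231, 71.9 and 0, also overlapped with those of tdT- cells.

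The third comparison asked whether tdT+ cells of BLZ945 mice differ from tdT+ cells of vehicle mice. None of the 7 members passed in DESeq2 or in edgeR, where 0.955% and 0.0656% of all genes did, and 3 members had an unadjusted p under 0.05 with either tool, against 8.08% of all genes in DESeq2. Of all genes 0.474% passed as lower and 0.481% as higher. Groups did not overlap for 2 members, against 6.72% of all genes. With the replicate block, which again pairs different animals by their labels, 2 members passed, against 2.83%. The median log2 fold change of the members was 0.14, and that of all genes 0.00. The largest value was that of Ms4a4a, at 0.48 ± 0.20 (DESeq2 adjusted p = 0.0729), and all 4 BLZ945 tdT+ libraries were above all vehicle libraries. Ms4a6b had 0.36 ± 0.15 (DESeq2 adjusted p = 0.09) with overlapping groups and Ms4a6d 0.22 ± 0.11 (DESeq2 adjusted p = 0.243) with groups that did not overlap. Fitted on the 8 libraries of these 2 groups alone, all 3 passed, where 2.37% of all genes did, with log2 fold changes of 0.52, 0.39 and 0.25 (DESeq2 adjusted p = 0.00632, 0.00996 and 0.0161). Leaving out the BLZ945 tdT+ library F2 brought Ms4a4a to 0.0473 and Ms4a6b to 0.0124, and leaving out the vehicle library F2 brought Ms4a4a to 0.0416. The difference was smaller for Ms4a7 (0.05), Ms4a6c (0.14), Ms4a4c (-0.03) and Ms4a4b (-0.01), with adjusted p of 0.813 or above in DESeq2. Of the CNS-associated macrophage markers 3 of 7 were higher and 1 was lower in BLZ945 tdT+ cells, and none of the 5 microglia markers passed. The B cell marker Cd79b was lower (log2 fold change -1.63 ± 0.30, DESeq2 adjusted p = 1.73e-06). Of the sparse markers counted in few libraries, the monocyte marker Ly6c2 and the NK cell marker Nkg7 were called lower. Their part in the values of the members was not tested.

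**Figure D5:**
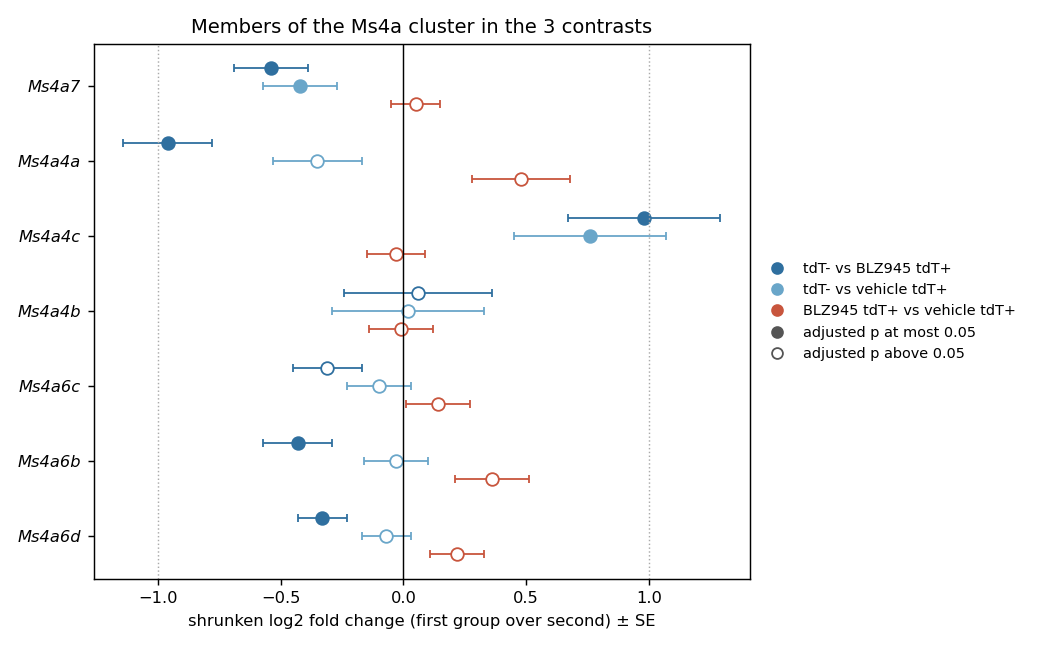
Shrunken log2 fold changes (x axis) with their SE for the 7 members in the 3 contrasts, first group over second, with filled points for a DESeq2 adjusted p of at most 0.05 and open points otherwise. Dotted lines mark a log2 fold change of 1 in size, which no point exceeds. Ms4a4a lies at -0.96 against BLZ945 tdT+ and at -0.35 against vehicle cells, whereas Ms4a4c lies at 0.98 and 0.76.

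The similarity of profiles was described by the root-mean-square (RMS) difference of log2(normalised count + 1) over the 12 libraries after centring each gene. It was 0.14 for each of the 3 pairs among Ms4a6b, Ms4a6c and Ms4a6d, less than the RMS of their own profiles around the mean for Ms4a6b (0.28), Ms4a6c (0.23) and Ms4a6d (0.19). Ms4a7 was at 0.22 from Ms4a6d and at 0.30 from Ms4a4a. Ms4a4c was at 0.73 or more from every other member, above its own RMS of 0.64, and its near copy Ms4a4b was at 2.68 from it. Libraries share groups and depth across genes, and these distances were not tested.

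Among the 9304 genes whose mean over the libraries reached 100 normalised counts, the profile most like that of Ms4a7 was that of Fcgr2b, the inhibitory Fc receptor (RMS difference 0.13), followed by Fkbp1a (0.14) and the lysosomal protease gene Ctsc (0.15). For Ms4a4a they were Ap2a2 (0.18), a subunit of the clathrin adaptor, the RNA sensor gene Tlr8 (0.20) and F13a1 (0.20), which codes for a chain of coagulation factor XIII. Ms4a4c was nearest to Tbpl1 (0.24), Ptk2b (0.26) and Naaa (0.28). Genes near Ms4a6b included Magt1 (0.13) and Lamp1 (0.17), and Ms4a6d was nearest to Lamp1 (0.08), Ctsb (0.09) and Rab14 (0.11). Lamp1 codes for a protein of the lysosomal membrane, and Ctsb for a lysosomal protease. Ms4a6c was nearest to Bcl2l1 (0.13), Ifi204 (0.13) and the complement receptor gene C3ar1 (0.14). For the sparse Ms4a4b the nearest genes were still 1.55 or more away.

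Of the other 14 Ms4a rows, 8 had 0 counts in all 12 libraries and 3 passed the filter on low counts. Among these Ms4a14 had 332, 819, 245 and 807 normalised counts in the BLZ945 tdT+ libraries F1, F2, M1 and M2 and 0, 87.6, 0 and 32.5 in the tdT- libraries. The groups did not overlap and Ms4a14 was lower in tdT- cells (DESeq2 adjusted p = 0.00417), although its unshrunken log2 fold change of -4.20 was shrunken to -0.25 ± 0.49, and edgeR gave an adjusted p of 0.123. In the vehicle libraries Ms4a14 had 332, 109, 106 and 154 normalised counts, also above all tdT- libraries, with a DESeq2 adjusted p of 0.181. Without the tdT- library F2 the adjusted p of Ms4a14 in DESeq2 was 1.09e-05 against BLZ945 tdT+ and 0.00511 against vehicle cells. Ms4a1 was counted in 4 libraries, at 204 normalised counts in tdT- F1, 165 in vehicle M1, 31.7 in vehicle F2 and 30.4 in BLZ945 tdT+ M2. Ms4a8a was counted in 7 libraries, at up to 52.1 normalised counts, and neither gene passed in any of the 3 contrasts. Ms4a3 had 1806 and Ms4a2 87.6 normalised counts in the tdT- library F2, the library with the neutrophil markers, and 0 in the other 11.

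Relatives and partners of the family were looked at beside it. Tmem176a and Tmem176b code for related proteins with the same membrane topology, and both were abundant. Tmem176a was higher in tdT- than in BLZ945 tdT+ cells (17516 ± 2121 against 11476 ± 1259 normalised counts, log2 fold change 0.58 ± 0.11, DESeq2 adjusted p = 1.36e-06), and by 0.65 without the tdT- library F2. Against the 16136 ± 1031 of vehicle cells it was lower in BLZ945 tdT+ cells (-0.43 ± 0.11, DESeq2 adjusted p = 0.0015). Tmem176b was likewise lower in BLZ945 tdT+ than in vehicle cells (-0.31 ± 0.10, DESeq2 adjusted p = 0.035) and did not pass against tdT- cells (0.24, DESeq2 adjusted p = 0.106). Of 10 genes reported as partners of Ms4a proteins or linked with them, 9 passed the filter. Only Trem2, a lipid-sensing receptor of macrophages and microglia, passed the test in any contrast. Of all genes tested 6.38% passed between tdT- and BLZ945 tdT+ cells and 6.76% between tdT- and vehicle cells. All 5 microglia markers were higher in tdT- cells as well, and their part in the difference of Trem2 was not tested. Trem2 had 22522 ± 5391 normalised counts in tdT-, 12900 ± 1221 in BLZ945 tdT+ and 11474 ± 1131 in vehicle cells. Its log2 fold change was 0.76 ± 0.15 against BLZ945 tdT+ cells (DESeq2 adjusted p = 5.31e-06) and 0.93 ± 0.15 against vehicle cells (DESeq2 adjusted p = 9.78e-09), or 0.88 and 1.05 without the tdT- library F2. Its adaptor gene Tyrobp, in contrast, had 0.14 and 0.05 (DESeq2 adjusted p = 0.266 and 0.898), and Clec7a, Syk, Fcer1g, Vsig4, Nlrp3, Adam10 and Adam17 did not pass in any contrast either.

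Of 73 other rows within 500 kb of the outermost Ms4a genes, 22 passed the filter and 2 were called in the contrasts on tdT- cells, against the shares of 6.38% and 6.76% of all genes given above. Cyb561a3, which codes for a lysosomal ferric reductase, was higher in tdT- than in BLZ945 tdT+ cells (3335 ± 1324 against 1654 ± 236 normalised counts, log2 fold change 0.89 ± 0.28, DESeq2 adjusted p = 0.00355). The predicted gene Gm56663 was lower (3010 ± 478 against 6552 ± 1835, log2 fold change -1.07 ± 0.19, DESeq2 adjusted p = 1.19e-07). Against vehicle cells both were called in the same directions, at 0.63 and -0.62. Without the tdT- library F2 Cyb561a3 had 1.11 and 0.86 and Gm56663 -0.99 and -0.55 in these contrasts, all still called. The median log2 fold change of the 22 neighbours was -0.01 in either contrast. Between the tdT+ groups none of them was called in DESeq2.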

How the data were processed

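Bulk RNA-seq libraries were made per the labels with SMART-Seq, in which cDNA is amplified by PCR, from sorted CD206+ cells of mouse brain. The values deposited by the authors are raw read counts for each gene symbol and library, without normalisation or pooling. Per the submitters' processing notes and the file header, STAR 2.7.11a and featureCounts 2.0.6 were used, over exons of a filtered GENCODE M33 annotation (GRCm39) with tdTomato, without strand and without multi-mapping reads. Counts are therefore not independent molecules, and depth limits cover counting error only. All 12 columns were mapped to libraries by name and 0 were left over. A vehicle column carries the number of library M2 with the label M1 and was taken by its number.

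A gene was left out where 75% or more of the libraries held less than 10 counts. The other 13724 genes, all 7 members among them, were fitted with DESeq2 1.42.0 in R 4.3.3 (two-sided Wald test, group only, all 12 libraries), with fold changes shrunken by apeglm 1.24.0 and Benjamini-Hochberg adjustment over all genes tested. A planned exact permutation test for members removed by the filter had nothing to test. Normalised counts are counts over size factors, and TPM was computed from counts and the deposited exon lengths. The 3 groups of 4 and the mouse labels come from the labels, and p-values measure the spread between mice. Alternatives were edgeR 4.0.16 (TMM, quasi-likelihood), TMM or total-count scaling in DESeq2, no filter, unshrunken fold changes, the compared groups alone, the mouse as a replicate block, the letter F or M as a covariate, leaving out each library and, chosen after seeing the data, transcript in place of exon lengths. The tdT- and tdT+ libraries of BLZ945 mice are paired because they come from the same animals. Their deviations from the group means correlated across genes by -0.00463 to 0.0352 per mouse. Replicates differed well beyond sampling noise (chi-square over degrees of freedom of 48.7 or more). Scripts were tested on simulated data. The members, gene lists, markers and motifs were chosen with earlier results of these data known. Named genes are all members, other Ms4a rows past the filter, listed relatives and partners, called neighbours, and the 3 genes nearest to each member by profile, of which 1 is not reported here, like some single markers. The 10 marker lists were those of CNS-associated macrophages, microglia, monocytes, T and NK cells, B cells, neutrophils, mast cells, red blood cells, endothelial cells and fibroblasts. Promoters came from RefSeq (GRCm38.p6) and coding sequences from GENCODE M21 (GRCm38), so no coordinate was carried over to GRCm39.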

Additional observations from a re-analysis of the deposited data

Results flagged for a closer look

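For each member and group, that is in 21 sets of 4 libraries, the extreme library was set against the rest. In 2 of them the gap to the nearest library exceeded Dixon's 95% critical value as a share of the range, where chance alone gives 1.05 (1 in 20). The tdT- library M1 was low for Ms4a4c, at 1723 normalised counts where the rest of that group had 2179 to 2230 (the gap was 0.9 of the range). The BLZ945 tdT+ library F1 was high for Ms4a6c, at 9274 normalised counts against 7547 to 7837 (the gap was 0.832 of the range).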

How the results depend on the processing

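Between tdT- and BLZ945 tdT+ cells, 5 members passed in DESeq2, 2 under edgeR, and between 3 and 6 when each library was left out. There were 3 without BLZ945 tdT+ F1, M1 or M2 and 6 without tdT- F1. The count of member DEGs was 0, but 2 under edgeR and with unshrunken fold changes (Ms4a4a and Ms4a4c), 1 with total-count size factors, 1 with the 2 groups alone, 1 with the replicate block, and 0 to 1 when each library was left out. Between tdT- and vehicle cells, 2 members passed, 0 under edgeR, 1 with the 2 groups alone and 0 to 2 when each library was left out (0 without vehicle M2). Between the tdT+ groups, 0 members passed, 3 with the 2 groups alone, 2 with the replicate block, and 0 to 2 when each library was left out.

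The block changed no other call of a member between tdT- and BLZ945 tdT+ cells than that of Ms4a6c. In contrasts with vehicle mice the labels share only a number, and same-labelled deviations correlated by -0.0182 to 0.0484. Reversed signs all concerned values that did not pass. Between tdT- and vehicle cells these were Ms4a4b at -0.00 with the replicate block and at -0.02 without tdT- M2, Ms4a6b at 0.01, 0.05 and 0.00 without vehicle F2, tdT- F2 and tdT- M2, and Ms4a6d at 0.01 without tdT- F2. Between the tdT+ groups it was Ms4a4c at 0.00 without vehicle F1. Over all left-out libraries these values ran from -0.02 to 0.04 for Ms4a4b, -0.12 to 0.05 for Ms4a6b, -0.11 to 0.01 for Ms4a6d and -0.07 to 0.00 for Ms4a4c. Of 336 recomputed fold changes, 298 kept direction and side of the threshold, 21 lost and 10 gained a call and 7 reversed. Those with unshrunken fold changes could change no call, since they keep the adjusted p of the main fit. The causes were not tested.

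Counts over all genes were 875, 928 and 131 in the 3 contrasts in order, and 377, 446 and 9 under edgeR. The last was 256 without the filter, 325 with the 2 groups alone and 389 with the block. The DEGs numbered 309, 350 and 23, and 487, 544 and 67 with unshrunken fold changes, and the 23 became 7 under edgeR, 45 without the filter, 54 with the 2 groups alone and 58 with the block. A test of whether the effect differed between the labels F and M gave 0 genes under edgeR (984 at an unadjusted p under 0.05) and 369 in DESeq2, no member among either, but Ms4a1 among the latter. TMM-scaled CPM per kilobase in place of TPM gave lower values on another scale, such as 414, 621 and 302 for Ms4a4a. Transcript in place of exon lengths, chosen after seeing the data, put Ms4a7 first in place of Ms4a4a in all 3 groups. A minimum of 1000 normalised counts kept all 3 nearest genes for 5 members, 2 for Ms4a4c and 0 for Ms4a4b. Depth limits Ms4a4b most, with 0 to 389 counts in a library.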

Other observations

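The other marker lists were as follows. The summed normalised counts of 6 T and NK cell markers lay between 0 and 107 in vehicle tdT+, between 0 and 5.13 in BLZ945 tdT+ and between 0 and 680 in tdT- libraries. Those of 5 B cell markers, which include Ms4a1, lay between 918 and 1294, between 251 and 440 and between 633 and 1022, with Pax5 at 0 in all 12 libraries. Most of it was Cd79b, which was higher in tdT- than in BLZ945 tdT+ cells (log2 fold change 1.16 ± 0.31, DESeq2 adjusted p = 4.26e-04). The 5 mast cell markers, which include Ms4a2, reached at most 457, the 3 endothelial markers 165 and the 3 fibroblast markers 277 in any library. Sums of 4 red blood cell markers varied within every group, from 54.1 to 7863, from 393 to 13438 and from 8.44 to 31475, the last in the tdT- library F2.

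The antisense gene BE692007, which shares exon bases with Ms4a6c, had between 674 and 1676 normalised counts in vehicle, between 1311 and 1642 in BLZ945 tdT+ and between 752 and 1157 in tdT- libraries. Its split from Ms4a6c cannot be checked in counts made without strand.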
